A study of Homo sapiens with 9 samples.

Results

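The canonical YAP/TAZ target genes are genes that are widely read as output of the transcriptional coactivators YAP and TAZ. The set held CCN1, CCN2, THBS1, AMOTL1, AMOTL2, AXL, CRIM1, AJUBA, NUAK2 and PTPN14. The genes were chosen by name and not by a rule on measured values, but with earlier results of these data known. These were 10 of the 25801 genes found in a SLAM-Seq experiment in MCF10A cells, and their mRNAs were read through 11 distinct 3′ intervals. MCF10A is a human breast epithelial line that is not transformed. In all groups the cells were JUN knockouts that re-expressed JUN fused to an auxin-inducible degron with a V5 tag, together with the auxin receptor TIR1, so that indole-3-acetic acid (IAA) leads to loss of the JUN protein. Cells of the first group received no 4-thiouridine (4sU), and the labels do not say whether they received the solvent DMSO. Cells of the second group received DMSO and 100 µM 4sU for 1 h. Those of the third group were kept in 100 µM IAA for 1 h and were then given 100 µM 4sU for 1 h. Each group had 3 labelled replicates, which the study calls biological.

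YAP and TAZ do not bind DNA themselves. They are recruited by the TEAD transcription factors, often at sites shared with the AP-1 factors of the JUN and FOS families, and they are held back by the Hippo kinases LATS1 and LATS2. Several target genes code for secreted or surface proteins that act on the matrix and on growth, and others code for proteins that restrain YAP and TAZ in turn. SLAM-Seq separates old from new mRNA. RNA made during the pulse takes up 4sU, whose alkylated positions are sequenced as C in place of T. The T>C conversion rate of a 3′ interval is the share of T positions read as C, and it is high when much of an mRNA was made during the pulse.

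The series was deposited as a table with 2 values for each library and 3′ interval, the T>C conversion rate and the reads scaled to library size, named CPM. The library totals recovered from the CPM were 18997637 to 24014195 reads. The IAA columns held the same values throughout and were taken as 1 library of unknown replicate number, while 35279 of 56868 rows differed among the DMSO libraries with 4sU. All comparisons with IAA thus have no replicate check on the IAA side. The median conversion rate of genes with a mean of at least 200 reads was 0.0574%, 0.0575% and 0.0598% without 4sU, 0.237%, 0.182% and 0.179% with DMSO and 4sU, and 0.220% with IAA and 4sU. All 8 basal epithelial markers (among them KRT5, KRT14 and TP63) were at 1 CPM or more in every library, with a summed level of 3580 to 4623 CPM without 4sU, 4382 to 4650 CPM with DMSO and 4sU, and 4400 CPM with IAA. Of 5 luminal markers, 3 (KRT8, KRT18 and GATA3) were at 1 CPM or more in every library, and ESR1 and PGR were under 1 CPM in every library. The summed level of the list was 124 to 130 CPM without 4sU, 134 to 181 CPM with DMSO and 4sU and 166 CPM with IAA. Of 4 fibroblast markers, 1 was at 1 CPM or more in every library and COL1A2 was at 0 in all, and the list summed to 3.68 to 5.23 CPM without 4sU, 3.50 to 6.06 CPM with DMSO and 4sU and 9.92 CPM with IAA, and its part in the results with IAA was not tested. The endothelial sum was at most 1.08 CPM with CDH5 at 0 in all libraries, and the leukocyte sum at most 0.0416 CPM with PTPRC and CD3E at 0. The degron acts on the JUN protein, so JUN mRNA does not check the depletion. It was at 48.1, 57.6 and 45.0 CPM without 4sU, at 30.2, 20.3 and 25.6 CPM with DMSO and 4sU, and at 62.9 CPM with IAA.

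The sequences at both ends of these genes are shown first, since promoters can carry TEAD sites and the 3′ UTRs hold the intervals that were read. Binding was not measured in these data. The study's own binding data pointed to a role of JUN at YAP-regulated enhancers far from gene starts, which promoters leave out. RefSeq promoters of assembly GRCh38.p14, from 250 bases before to 50 bases after a transcription start, were found for 8 of the 10 genes, in 11 promoters, while CCN1 and CRIM1 were not matched. The TEAD core motif GGAATG was searched on both strands, and TGANTCA was searched for AP-1. Both are short, and a match describes the letters only. GGAATG was found in a promoter of 7 of the 8 genes, in 7 of 11 promoters, and in 14% of all 35116 RefSeq promoters of the same length. CCN2 carried 3 matches, a number reached by 0.128% of all promoters, and NUAK2 carried 2, while 1.37% of all promoters had 2 or more. THBS1, AMOTL2, AXL, AJUBA and PTPN14 had 1 each and AMOTL1 had none in this window. AMOTL2, AXL and AJUBA each had a further promoter, at another start, without a match. TGANTCA was in none of the 11 promoters and in 7.71% of all promoters. The stretch of the CCN2 promoter that holds all 3 matches (chr6:131951452-131951551, minus strand, positions -179 to -80 with the start counted as 0) and the sites of 4 further genes are given 5′ to 3′ in the direction of transcription, with the motif in capitals (CATTCC where it lies on the opposite strand).

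CCN2, 3 sites: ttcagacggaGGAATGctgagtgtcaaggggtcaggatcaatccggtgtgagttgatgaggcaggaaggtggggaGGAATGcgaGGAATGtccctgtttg
NUAK2, position -18, chr1:205321746-205321775, minus strand: ttataacaacttGGAATGctgtgctttact
NUAK2, position -197, chr1:205321925-205321954, minus strand: tcccctagtcccCATTCCtggtgggcgggt
THBS1, position -46, chr15:39581021-39581050, plus strand: gaggaatccccaGGAATGcgagcgcccctt
AMOTL2, position -69, chr3:134374499-134374528, minus strand: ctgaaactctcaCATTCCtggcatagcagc
PTPN14, position -200, chr1:214551785-214551814, minus strand: cctcccgggccgCATTCCtccccgcccccg

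**Figure D1:**
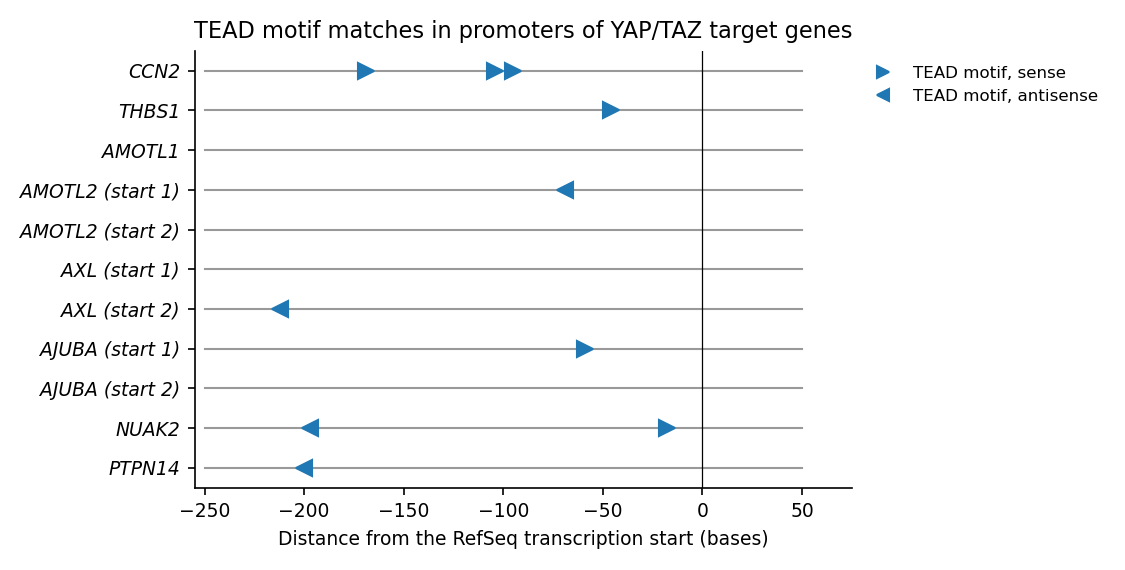
Matches to the TEAD core motif in the 11 RefSeq promoters of 8 YAP/TAZ target genes, plotted by their distance in bases from the transcription start (vertical line, position 0). Arrowheads pointing right are sense matches and those pointing left antisense matches, and CCN2 shows 3 sense matches between -169 and -95.

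The files give interval lengths and no coordinates, and the genes lie on GRCh37 as follows in GENCODE. CCN1 is at chr1:86046444-86050272, CCN2 at chr6:132269316-132272512 and THBS1 at chr15:39873280-39891667. AMOTL1 is at chr11:94439597-94609913, AMOTL2 at chr3:134074189-134094321, AXL at chr19:41725128-41767671 and CRIM1 at chr2:36582921-36778278. AJUBA is at chr14:23440386-23451760, NUAK2 at chr1:205271191-205290873 and PTPN14 at chr1:214522043-214725792. The deposited interval had exactly the length of an annotated 3′ UTR for CRIM1, NUAK2 and the shorter interval of AJUBA.

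In the 3′ UTRs, the heptamer TATTTAT, a core of the AU-rich elements found in many short-lived mRNAs, was counted on the sense strand with overlapping matches allowed. The UTRs were those of GENCODE on GRCh37, the build that the submitters' processing notes name as hg19. TATTTAT occurred in 30.9% of all 19775 canonical 3′ UTRs and in 7 of the 10 genes. NUAK2 had 4 matches in a 3′ UTR of 1390 bases (chr1:205271191-205272580), or 2.88 per kb, 3 of which overlap in 1 run. CCN1 had 2 matches in 911 bases (chr1:86048723-86049633), or 2.20 per kb. Over all canonical 3′ UTRs the density was 0.324 per kb. THBS1 had 3 matches in 4100 bases and CRIM1 2 in 2437 bases, AJUBA, AMOTL1 and PTPN14 had 1 each, and CCN2, AMOTL2 and AXL had none. Among UTRs within 20% of the length of CCN1's, 23.4% held at least 1 match, and for NUAK2 this share was 32.7%. It was 87.4% for PTPN14, 72.0% for AMOTL1, 63.3% for THBS1, 48.3% for CRIM1 and 45.2% for AJUBA. For CCN2, AMOTL2 and AXL, which had no match, it was 26.2%, 46.8% and 39.6%. The share over all UTRs thus takes no account of length. The sites of CCN1 and NUAK2 are shown because these were the genes with the densest matches, with the heptamer in capitals.

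CCN1, UTR base 531, chr1:86049242-86049270, plus strand: actgaatgtttTATTTATcaaaatgtagc
CCN1, UTR base 625, chr1:86049336-86049364, plus strand: tgaaaagatttTATTTATggaattaacca
NUAK2, UTR base 549, chr1:205272015-205272043, minus strand: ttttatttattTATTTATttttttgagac
NUAK2, UTR base 1131, chr1:205271433-205271461, minus strand: tagaatgtccaTATTTATttttatgttct

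The libraries were made with a 3′ kit that gives reads from the 3′ end of an mRNA, so CPM were not divided by length, and levels of different genes are compared on this scale only. Without 4sU, the mean CPM ran from 352 ± 106 (SD, n = 3) for CCN1, which codes for a secreted matricellular protein, to 7.76 ± 2.04 for NUAK2, a kinase of the AMPK family. PTPN14, a phosphatase that binds YAP, was at 161, 275 and 278 CPM and overlapped with CCN1. THBS1, the matrix glycoprotein thrombospondin 1, was at 117, 111 and 129 CPM, below PTPN14 in every library. CRIM1, a membrane protein that binds BMPs, followed at 64.4, 115 and 108 CPM and overlapped with THBS1. The angiomotin-like scaffolds AMOTL2 (34.9, 55.2 and 67.1 CPM) and AMOTL1 (61.1, 43.4 and 44.4 CPM) overlapped with each other. The LIM protein AJUBA was at 33.8, 40.5 and 35.6 CPM, below all AMOTL1 values, and overlapped with the matricellular CCN2 at 25.6, 34.0 and 40.0 CPM. The receptor tyrosine kinase AXL was at 15.7, 8.76 and 9.42 CPM, apart from CCN2 and overlapping with NUAK2. Of the 9 neighbouring pairs in this order, 3 had ranges that did not overlap. CCN1 was at the 98.1th percentile of expressed genes and NUAK2 at the 31.5th. Replicate 1 was the lowest of the 3 libraries without 4sU for CCN1, CCN2, AMOTL2, CRIM1, AJUBA and PTPN14, and the highest for AMOTL1, AXL and NUAK2.

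**Figure D2:**
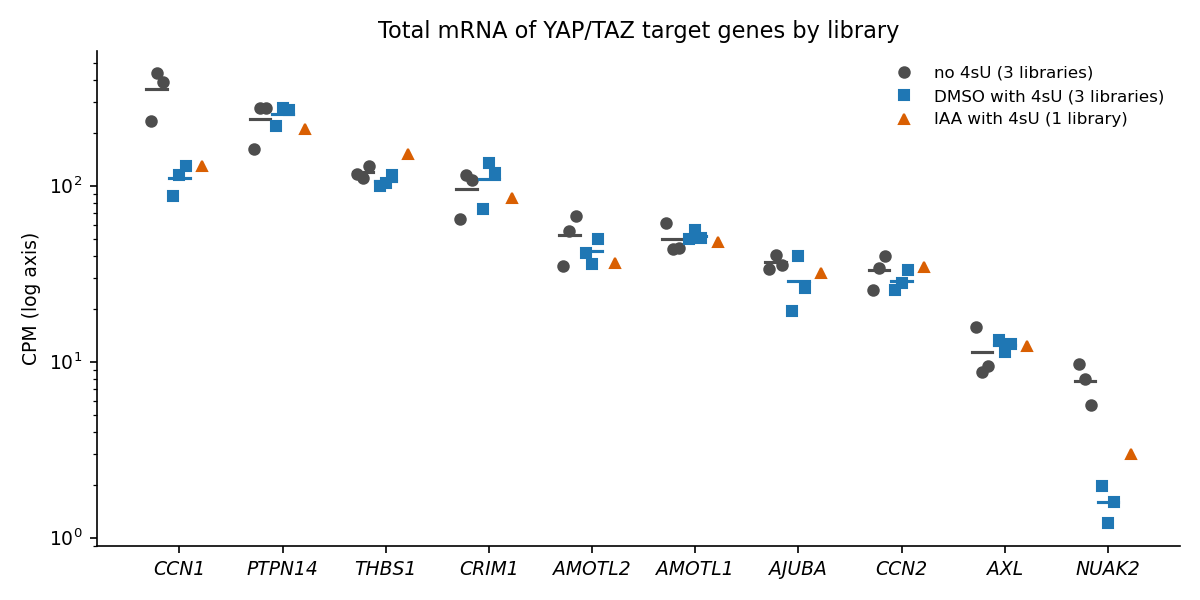
Total mRNA of the 10 genes in CPM (log axis) by library, ordered by the mean without 4sU; points are libraries and lines are means of 3 libraries. CCN1 and NUAK2 sit lower in all 3 libraries with DMSO and 4sU than in any library without 4sU, and the groups of the other 8 genes overlap.

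Next, total mRNA was compared between DMSO with 4sU and no 4sU, which asks whether the 1 h pulse itself went along with other mRNA levels. CCN1 and NUAK2 fell, and the other 8 genes did not pass the test. CCN1 was at 233, 435 and 389 CPM without 4sU and at 87.9, 115 and 130 CPM with DMSO and 4sU. NUAK2 was at 9.69, 7.95 and 5.63 CPM without 4sU (196, 178 and 107 reads) and at 1.97, 1.21 and 1.59 CPM with DMSO and 4sU (42, 29 and 32 reads). The groups did not overlap for either gene. In these bulk libraries, fewer cells with an mRNA and less of it per cell cannot be told apart. The mean CPM of CCN1 was 3.18-fold higher without 4sU and that of NUAK2 4.88-fold higher. On log2(CPM + 1), a scale that understates the change of low genes, CCN1 fell by 1.66 (SE 0.27, limma adjusted p = 0.015) and NUAK2 fell by 1.77 (SE 0.22, limma adjusted p = 0.0047). These 2 of 10 compare with 1.65% of all genes called lower, 184 of 11173. The call of CCN1 did not hold in limma without DMSO replicate 1, 2 or 3 (adjusted p = 0.075, 0.071 and 0.052) or without no 4sU replicate 2 or 3 (adjusted p = 0.077 and 0.072), with log2 changes of -1.99 to -1.49 over all 6 settings that leave out 1 library. NUAK2 stayed past the threshold in all 6. None of these fits used the replicate numbers. With the replicate number as a block and all 6 libraries, the log2 changes were the same. CCN1 then had an SE of 0.14 (limma adjusted p = 0.0040) and NUAK2 an SE of 0.19 (limma adjusted p = 0.0088).

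Among the remaining genes, CCN2 was at 25.6, 28.0 and 33.0 CPM with DMSO and 4sU, a log2 change of -0.22 (SE 0.21, limma adjusted p = 0.79). THBS1 was at 98.9, 103 and 115 CPM (-0.20, SE 0.15, limma adjusted p = 0.71). AMOTL2 was at 41.2, 35.7 and 50.0 CPM (-0.30, SE 0.26, limma adjusted p = 0.76). The values of these 3 genes overlapped between the groups. AJUBA was at 19.4, 40.1 and 26.3 CPM, with the widest spread of the 10 genes in these libraries in proportion to the mean (-0.44, SE 0.25, limma adjusted p = 0.61). AMOTL1 (49.6, 56.0 and 50.3 CPM), AXL (13.2, 11.4 and 12.5 CPM), CRIM1 (73.2, 134 and 118 CPM) and PTPN14 (218, 278 and 269 CPM) had log2 changes of 0.05 to 0.14 with limma adjusted p-values of 0.88 to 0.95. The median log2 change of the 10 genes was -0.21, and that of all genes tested was 0.04.

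CCN1 and CCN2 are close relatives of the CCN family, and the ratio of their mRNAs was compared between the groups. The ratio of CCN1 to CCN2 CPM was 9.12, 12.8 and 9.72 without 4sU, 3.44, 4.10 and 3.94 with DMSO and 4sU, and 3.75 with IAA. The groups did not overlap, and the difference of the log2 ratios was -1.45 (exact permutation test, two-sided p = 0.10, the smallest that 3 against 3 libraries allow, adjusted p = 0.15 over the 3 ratios tested). The ratio of AMOTL2 to AMOTL1 was 0.571, 1.27 and 1.51 without 4sU and 0.831, 0.638 and 0.993 with DMSO and 4sU, with overlapping values (exact permutation p = 0.50, adjusted p = 0.50). The ratio of CCN1 to AMOTL2, chosen after the values were seen, was 6.69, 7.89 and 5.80 without 4sU and 2.13, 3.21 and 2.60 with DMSO and 4sU, again with no overlap (exact permutation p = 0.10, adjusted p = 0.15). Because of that choice this p-value is descriptive only, and the ratio includes the fall of CCN1 given above.

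The conversion rate then showed which of these mRNAs had a large newly made share. With DMSO and 4sU it ranged from 10.2 ± 2.40% (SD, n = 3) for NUAK2 to 0.137 ± 0.0510% for AXL. How many T positions each rate rests on was not used here and its counting error is unknown, and the rates of NUAK2 rest on 29 to 42 reads. NUAK2 was at 12.1%, 10.9% and 7.48% with DMSO and 4sU and at 0.0557%, 0% and 0.104% without. AMOTL2 was at 3.67%, 3.25% and 2.57% against 0.0400%, 0.0344% and 0.0552%, and CCN1 at 2.90%, 2.37% and 2.20% against 0.0360%, 0.0429% and 0.0528%. These 3 genes stood at the top, with NUAK2 above both others in each library and AMOTL2 and CCN1 overlapping. Among genes averaging 200 reads or more, AMOTL2 was at the 99.5th percentile of the rate and CCN1 at the 99.1th. NUAK2 had fewer reads, and among all expressed genes it was at the 99.97th percentile.

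CCN2 followed at 1.06%, 0.694% and 0.745% with DMSO and 4sU, against 0.113%, 0.0708% and 0.0641% without, and THBS1 at 0.491%, 0.538% and 0.563% against 0.0630%, 0.0502% and 0.0655%. Both were apart from their neighbours in the order, THBS1 by a small margin over AJUBA, whose highest value was 0.487%. AJUBA was at 0.209%, 0.374% and 0.487% in the interval with most reads. AMOTL1 was at 0.330%, 0.216% and 0.203%, PTPN14 at 0.267%, 0.148% and 0.185%, and CRIM1 at 0.185%, 0.0995% and 0.131%. From AJUBA down to AXL at 0.187%, 0.0847% and 0.138%, each gene overlapped with the next. The paralogues were thus far apart within a library, with the rate of CCN1 2.72, 3.41 and 2.96 times that of CCN2 and the rate of AMOTL2 11.1, 15.0 and 12.7 times that of AMOTL1.

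**Figure D3:**
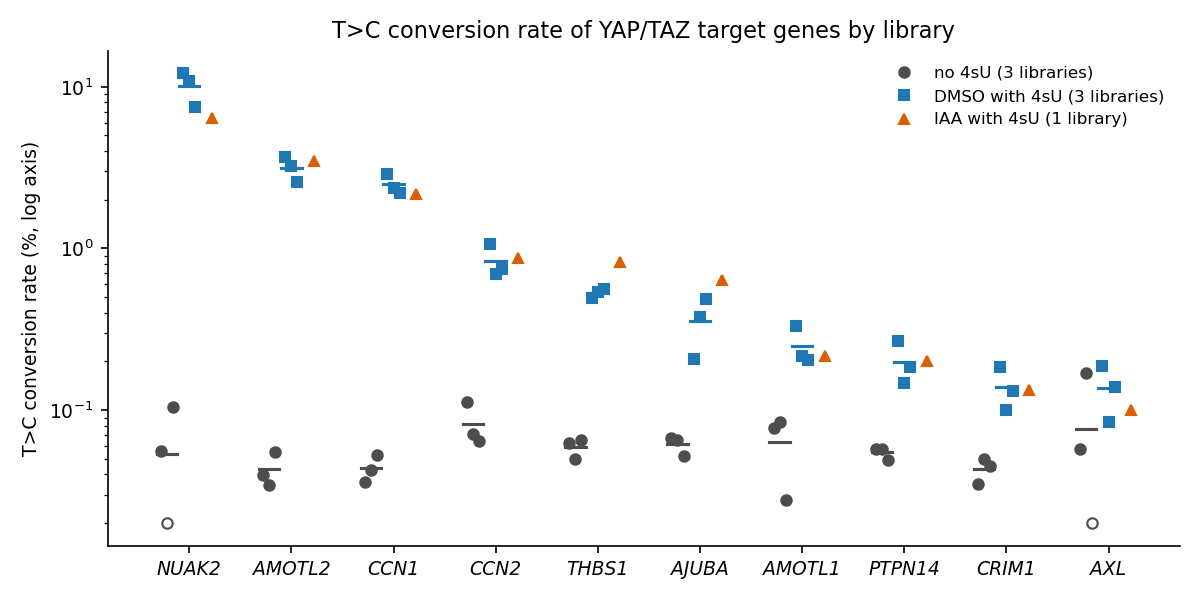
T>C conversion rate in % (log axis) of the 10 genes by library, ordered by the mean with DMSO and 4sU; points are libraries, lines are means of 3 libraries, and open circles at the bottom stand for rates of 0. Rates with 4sU lie above those without in every gene but AXL, and NUAK2 has the highest rates with DMSO and 4sU, at 7.48% to 12.1%.

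Against the libraries without 4sU, 8 of the 9 genes with enough reads had a higher rate (limma on log2(rate + 0.0005)), beside 61.5% of all 7170 genes tested. The log2 difference was 5.10 for AMOTL2 (SE 0.24, limma adjusted p = 3.2e-05), 4.75 for CCN1 (SE 0.23, limma adjusted p = 3.5e-05), 2.73 for CCN2 (SE 0.29, limma adjusted p = 7.8e-04) and 2.41 for THBS1 (SE 0.24, limma adjusted p = 6.6e-04). Those of AMOTL1, PTPN14 and CRIM1 were smaller, at 1.42, 1.23 and 0.99 (limma adjusted p = 0.0093, 0.0071 and 0.013). AXL did not pass the test, with rates of 0.0579%, 0.171% and 0% without 4sU that overlapped with the labelled ones (log2 difference 0.78, SE 0.54, limma adjusted p = 0.23). NUAK2 was under the minimum of 200 reads, and without that minimum its log2 difference was 6.74 (SE 0.54, limma adjusted p = 9.8e-04). The median log2 difference was 2.41 over the 9 genes, 1.80 when AJUBA is taken from its interval with most reads, and 1.15 over all genes tested.

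AJUBA was read in a pair of intervals that gave very different rates. The interval of 2272 bases (NM_032876 and NM_198086), with 397 to 954 reads per labelled DMSO library, had the rates given above, and its log2 difference was 1.80 (SE 0.32, limma adjusted p = 0.0028). The interval of 324 bases (NM_001289097) had rates of 15.0%, 9.30% and 13.4% with DMSO and 4sU, 15.0% with IAA and 0% in all 3 libraries without 4sU. It held only 15, 8 and 12 reads with DMSO and 4sU, 21 with IAA and 4, 4 and 2 without 4sU. Its length equals that of the 3′ UTR of AJUBA-204 at chr14:23447821-23448144 on GRCh37, which lies inside an intron of AJUBA-201 (23447655 to 23450469) and overlaps with 0 of its exons. Averaging both intervals, as was done for genes with several intervals, gave a log2 difference of 6.30 that rests on the short interval, and AJUBA passed the test either way.

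Setting both measures side by side, the genes with the highest rates included both whose total mRNA fell. Across the 10 genes, Spearman's rho between the log2 change of total mRNA with 4sU and the mean conversion rate was -0.89, and it was -0.83 over the 8 genes without NUAK2 and CCN1. This describes genes of the same libraries, which are no independent replicates. Both measures also use the DMSO libraries with 4sU, and the rate is a share of the reads that make up the total. Part of the relation, and of the shares of genes given below, can thus be built in. The rate of AMOTL2 overlapped with that of CCN1, while its groups overlapped in total mRNA. Of 63 further genes with at least 200 reads whose rate reached that of CCN1, 40 (63.5%) were called lower in total mRNA, with a median log2 change of -1.23. Of 39 whose rate reached that of AMOTL2, 26 (66.7%) were lower, and of 362 whose rate reached that of CCN2, 69 (19.1%) were lower. What part the 4sU pulse, the newly made share or another difference between the groups had in the lower level of CCN1 was not tested.

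**Figure D4:**
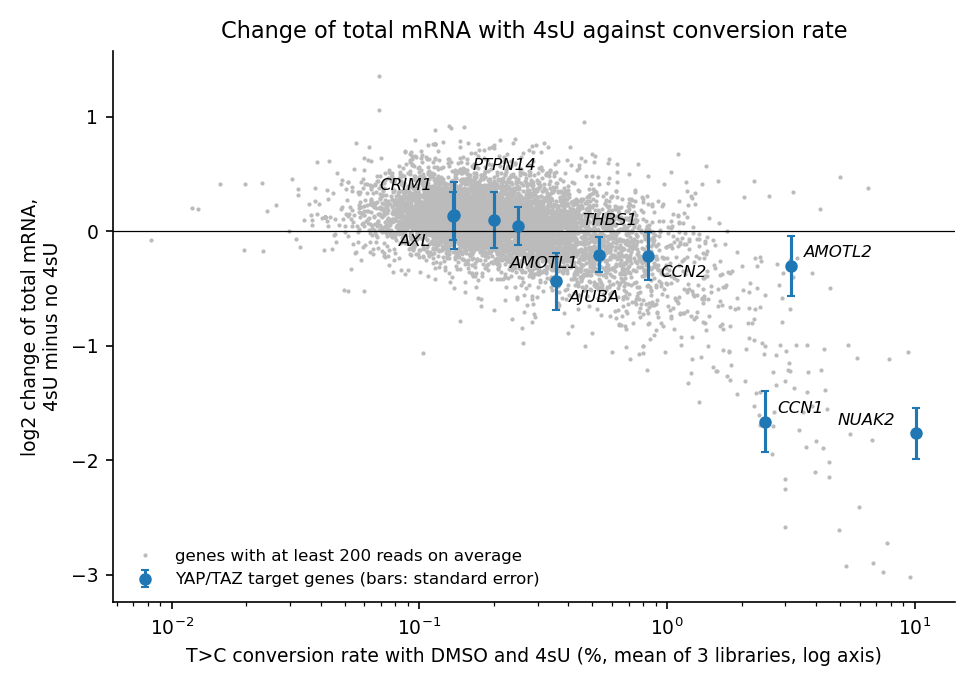
Log2 change of total mRNA between DMSO with 4sU and no 4sU (vertical axis) against the mean T>C conversion rate with DMSO and 4sU in % (log axis); grey points are genes averaging 200 reads or more, blue points are the 10 YAP/TAZ target genes with standard errors of the change. CCN1 (-1.66) and NUAK2 (-1.77) lie low at the right, while AMOTL2 (-0.30) lies near 0 at a rate of 3.16%.

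The comparison of IAA with DMSO, both with 4sU, asks what the loss of JUN protein did to the level and to the newly made share of these mRNAs. None of the genes was called in either measure, where called means that the IAA library was beyond all 3 DMSO libraries and differed from their mean by 1 log2 unit or more. In total mRNA this rule called 0.216% of all 11121 genes, and in the rate, with the median of every library set to the same value, 11.2% of 7166 genes. Of the 10 genes, 5 were outside the DMSO range in total mRNA, beside 41.5% of all genes. Of the 9 genes with enough reads, 4 were outside it in the rate, beside 49.8% of all genes, and 5 when AJUBA is taken from its interval with most reads. Both shares of the set were close to those of all genes.

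THBS1 was above the DMSO range in both measures. Its total mRNA was at 151 CPM with IAA, against 98.9, 103 and 115 CPM with DMSO and 4sU, and also above the highest value without 4sU, 129 CPM. Its rate was 0.826% with IAA, against 0.491%, 0.538% and 0.563%. The log2 difference was 0.43 in total mRNA and 0.47 in the centred rate. No other of the 10 genes was above the DMSO range in both. Of all genes, 2306 of 11121 were above it in total mRNA and 1713 of 7166 in the rate. How many were above it in both is not given, so THBS1 is described without that background. When the rate was multiplied by the CPM, the log2 difference of THBS1 was 0.93, above the range. On that product AJUBA, with its intervals averaged, was also above it (0.29). AXL (-0.61), CRIM1 (-0.54), AMOTL1 (-0.52), PTPN14 (-0.45) and AMOTL2 (-0.29) were below it. CCN1 (-0.17) and CCN2 (0.12) were inside it, and NUAK2 had too few reads. The share of all genes outside the DMSO range on this product is not given, so these positions have no background beside them.

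The CCN genes were not above the DMSO range in both measures. CCN1 was at 130 CPM with IAA, within the DMSO range, and its rate of 2.18% was slightly below the 2.20% to 2.90% with DMSO, a log2 difference of -0.30 after centring. CCN2 was at 34.6 CPM and 0.869%, log2 differences of 0.18 and -0.05 that were both inside the DMSO range, although the deposited CPM was above the highest DMSO value before TMM scaling. NUAK2 was above the DMSO range in CPM and below it in rate. It was at 2.99 CPM with 60 reads, a log2 difference of 0.57, and its rate of 6.38% differed by -0.79 on the log2 scale.

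Among the regulators of YAP and of junctions, AMOTL2 was at 36.2 CPM and 3.47% with IAA, below the DMSO range in total mRNA only after scaling by TMM factors (-0.29) and inside it in the rate (0.02). AMOTL1 was at 47.8 CPM and 0.217%, with a log2 difference of -0.20 below the range in total mRNA, and one of -0.27 in the rate that was below the range only after centring. PTPN14 was at 209 CPM, below the DMSO range with a log2 difference of -0.36, and its rate of 0.202% was inside the range. AJUBA was at 32.0 CPM, inside the range, and at 0.639% in the interval with most reads, 0.70 log2 units above the DMSO mean and just above the highest DMSO library. AXL was at 12.3 CPM inside the range and at 0.0999%, which was below it only after centring (-0.40). CRIM1 was at 85.2 CPM and 0.134%, inside the DMSO range in both. limma with the spread pooled over the libraries, which assumes that the lone IAA library varies like the others, called none of the 10 genes in total mRNA and none of the 9 tested in the uncentred rate, also at an unadjusted p under 0.05. Over all genes it called 0 in total mRNA (110 unadjusted) and 10 in the rate (427 unadjusted). With 1 IAA library this does not show that the levels did not differ.

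**Figure D5:**
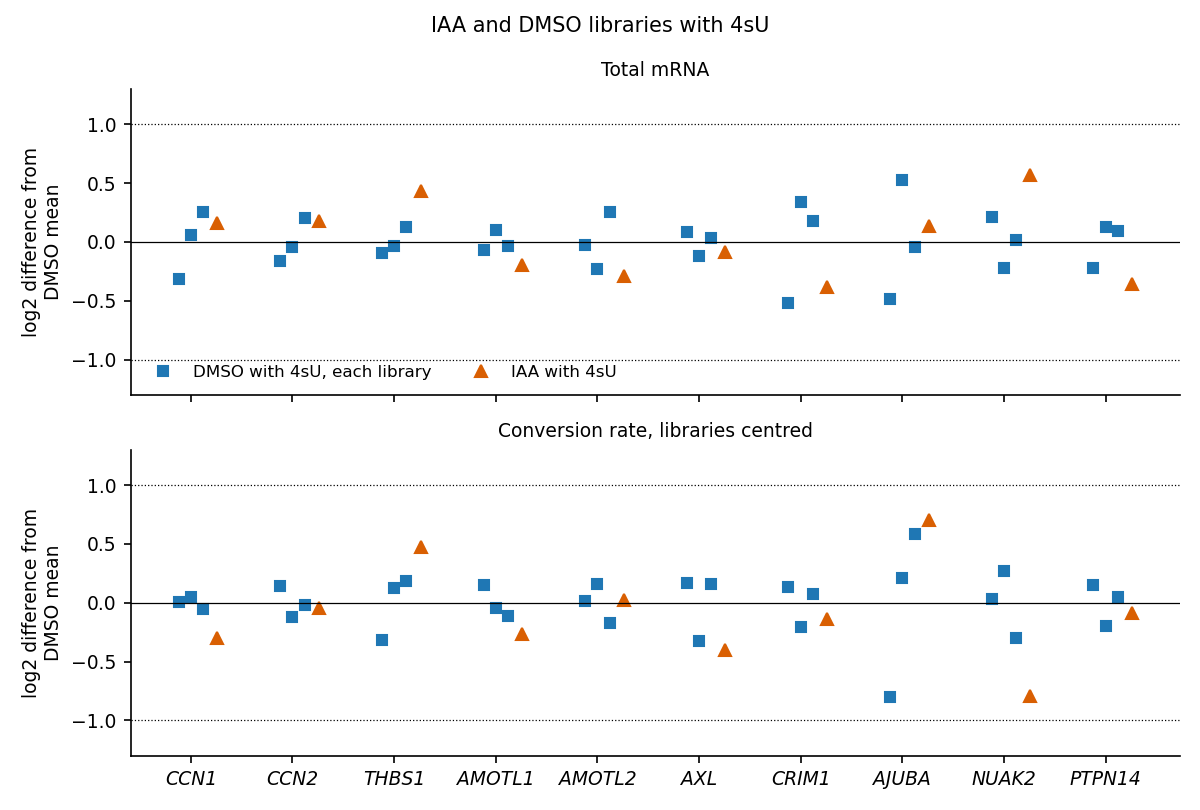
Log2 difference of each labelled library from the mean of the 3 DMSO libraries for the 10 genes, in total mRNA (top, log2(CPM + 1) with TMM library sizes) and in conversion rate (bottom, libraries centred on their medians); squares are the DMSO libraries, triangles the IAA library, and dotted lines mark 1 log2 unit. No triangle reaches 1 log2 unit, and THBS1 is above all DMSO libraries in both panels (0.43 and 0.47).

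Other target genes of the pathway were compared in the same way. Of 15 further genes often named as YAP/TAZ targets, 13 were expressed enough to be tested in total mRNA, and 1, the stress-induced growth-arrest gene GADD45A, was lower with 4sU, beside 1.65% of all genes. GADD45A was at 192, 143 and 132 CPM without 4sU, at 47.5, 40.1 and 43.2 CPM with DMSO and 4sU and at 46.3 CPM with IAA, a log2 change of -1.83 (SE 0.16, limma adjusted p = 7.6e-04), and its rate with DMSO and 4sU was 3.98 ± 1.65% (SD, n = 3). ANKRD1 and IGFBP3 were too low to be tested. In the rate, 8 of 10 were higher with 4sU, beside 61.5% of all genes, while CCDC80 and NT5E had limma adjusted p-values of 0.073 and 0.054. The median log2 change of total mRNA was -0.11 over the 13 genes. With IAA, 2 of 14 were above the DMSO range in total mRNA and 6 below it, with a median log2 difference of -0.10. In the rate, 1 of 10 was above and 3 below, with a median of 0.08. Of all genes, 2306 of 11121 were above and 2306 below in total mRNA, and 1713 of 7166 above and 1858 below in the rate. None of the further genes was called with IAA.

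The longer list of YAP/TAZ target genes that the study used held 196 genes, of which 193 were found and 5 were in the set described here. Without those, 170 were tested in total mRNA and 4 were lower with 4sU in limma, beside 1.65% of all genes, with log2 changes of -1.26 for BCAR3, -1.44 for DKK1, -1.69 for RND3 and -0.95 for IL1A. The median log2 change of the list was -0.0022. In the rate, 95 of 146 were higher with 4sU, beside 61.5% of all genes, with a median log2 difference of 1.08 beside 1.15. With IAA, 10 of 169 were above the DMSO range in total mRNA and 55 below it, 1 was called, and the median log2 difference was -0.18. Of all genes, 2306 were above and 2306 below. In the rate, 46 of 145 were above and 26 below the range, 15 were called, and the median was 0.01. Of all 7166 genes, 1713 were above and 1858 below in the rate, and 805 (11.2%) were called.

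The genes whose level followed CCN1 most closely over the 7 distinct libraries, among 7179 genes averaging 200 reads or more, were INTS6, TTC14 and CEBPD, with Pearson's r of 0.987, 0.986 and 0.984 on log2(CPM + 1). These values are a description over libraries that include the difference with 4sU. CEBPD, a transcription factor gene induced early by many stimuli, was at 61.3, 93.6 and 88.0 CPM without 4sU, 32.7, 38.8 and 48.3 CPM with DMSO and 4sU, and 50.1 CPM with IAA, so that it was low in the same libraries as CCN1. For CCN2 they were E2F7, NR3C1 and NFE2L2, with r of 0.968, 0.964 and 0.959. CCN1 and CCN2 had r = 0.56 with each other, and CCN2 had r = 0.75 with AMOTL2 and 0.63 with THBS1. AMOTL1 and AXL went the other way, with r of -0.77 and -0.73 with CCN2 and of -0.43 and -0.60 with CCN1.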

How the data were processed

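SLAM-Seq of MCF10A cells was analysed in 3 groups, no 4sU (n = 3), DMSO with 4sU (n = 3) and IAA with 4sU (3 identical columns, used as 1 library). The authors used the nf-core SLAM-Seq workflow on single-end reads of 3′ mRNA libraries. The submitters' notes name hg19, and tool versions and strand use in counting are not given in the sources used here. The deposited conversion rate is a fraction per 3′ interval without background subtraction. The column that the authors deposited as CPM was treated as a signal, since the same reads stand in several rows where transcripts have an interval in common. In 100% of non-zero values it was a whole multiple of 1 read (tolerance 0.001), which gave reads and totals. The authors' fold changes came from DESeq2 and were not used. Per-sample columns left unused numbered 0.

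RefSeq identifiers were matched to genes in 97.7% of rows (RefSeq table of GRCh38.p14, names only). Repeated rows were used once, and in the 20.2% of genes with several intervals reads were summed and rates averaged. For single members the rate of the interval with most reads is given. Opposite-strand genes overlap the 3′ UTRs of CCN2, THBS1, AMOTL1 and CRIM1, and same-strand genes those of AMOTL2, AJUBA and PTPN14, so their reads are uncertain to that extent.

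Total mRNA was tested with limma (3.58.1, R 4.3.3; trended, robust) on log2(CPM + 1) with TMM library sizes, over genes at 1 CPM or more in at least 3 of 6 libraries. Rates were tested with limma on log2(rate + 0.0005), over genes averaging 200 reads whose rate exceeded 0 in 3 or more of the 6 libraries. p-values were Benjamini-Hochberg adjusted over all genes tested, with a threshold of 0.05. edgeR (4.0.16, quasi-likelihood) and DESeq2 (1.42.0) on the recovered reads were alternatives. On simulated data for DMSO with 4sU against no 4sU with 200 changed genes, limma recovered 96% of 3-fold changes in total mRNA (11087 genes, 17 false among 209 calls) and 89.5% of 6-fold changes in rates (7066 genes, 8 false among 187). The simulation used the same spread setting for all genes and no pairing. It changed far fewer rates than the 61.5% called higher in the real data, so these shares need not hold there. IAA was compared with DMSO by the range and distance of its values, and as an alternative by limma with the spread pooled over 7 libraries. Same-numbered libraries of the 2 groups without IAA deviated together in total mRNA (correlations 0.39, 0.31 and 0.36), so the numbers pair them there, and not in rates (0.0060, -0.013 and 0.0073). The main fits, those with 1 library left out and the permutation tests did not use this pairing, and the block was an alternative.

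All 10 members are named. Of the further target genes those past the threshold are named, and for CCN1 and CCN2 the 3 genes with the highest correlation. The members and lists were chosen with earlier results of these data known. Scripts ran in Python 3.11.15 with scipy 1.17.1, numpy 2.4.6 and pandas 2.3.3.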

Additional observations from a re-analysis of the deposited data

How the results depend on the processing

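Each comparison was repeated with another pseudocount, filter, scaling, tool or interval choice, and with each library left out. Of the 10 genes, 2 were lower in total mRNA with 4sU, and leaving out 1 library gave 1 to 2, because the call of CCN1 was lost in 5 of 6 cases. Over all genes, the number lower was 184, 396 with DESeq2, 324 with the IAA library added to those with 4sU, and 45 to 220 with 1 library left out. With the replicate number as a block, 2 of the 10 genes and 190 of all genes were lower in total mRNA, and 8 and 3959 were higher in the rate, so the block changed no call of a member. With at least 1000 reads on average, which tests fewer genes, 5 members and 2102 of all genes were higher in the rate, against 8 and 4406. With a limit of 0.5 log2 units in place of 1, 1 member (NUAK2) was called in total mRNA with IAA. It rests on 60 reads with IAA and 29 to 42 with DMSO and 4sU. The share of all genes called at that limit is not given, so this call has no background beside it. Log2 changes near 0 changed sign. AMOTL1 was at -0.013 with the IAA library added, and with 1 library left out AMOTL1 ranged from -0.045 to 0.15, AXL from -0.020 to 0.32, CRIM1 from -0.18 to 0.40 and PTPN14 from -0.21 to 0.25. The cause was not tested. Of 424 values of single members under the alternatives, 17 had another sign than the main value, 8 of them with 4sU against no 4sU and 9 with IAA against DMSO, where no member was called, and 5 lost their call. The IAA comparison is limited by its 1 library, and NUAK2 and the short AJUBA interval by their few reads.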
